A study of Mus musculus with 34 samples.

Results

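CD4 T cells of the group labelled TfhA_4e4 (5 libraries) were compared with those labelled Tfh2_1e4 (6 libraries), which together make 11 of the 34 libraries of the series. The members were taken from the group part of the sample titles alone. Both groups held naive CD4 T cells of C57BL/6 mice, with no genetic change given in the labels, kept for 3.5 days with anti-CD28 and anti-CD3 bound to the plate, after which cells were collected by flow sorting. They share the strain, the stimulation, the culture time, the sort into Trizol LS and the library kit, which reads the 3' end of each transcript. They differ in the culture code (TfhA or Tfh2) and in the number that follows it (4e4 or 1e4), so in this comparison the code and the number cannot be told apart. What the codes mean, what the number counts and how the sort was gated are not given in the labels. Separate animals or cultures are not named for the replicates either, so a p-value speaks only to the spread among these libraries, which may be technical. The TfhA_4e4 libraries carry the replicate numbers 1, 2, 3, 5 and 6, and their values are listed in that order. Within the code Tfh2, the number 1e4 was picked as the reference for its high cell-cycle and low hypoxia gene levels. In those genes the standing of Tfh2_1e4 among the Tfh2 groups, and likewise the values and calls of TfhA_4e4 against it, are therefore a description, given without p-values, and support nothing. Beside this comparison, 2 others are given: TfhA_4e4 against Tfh2_4e4 (6 libraries), which share the number, and Tfh2_4e4 against Tfh2_1e4, which share the code. The first shares its TfhA libraries with the main comparison, and the second is by construction the difference between the others.

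Follicular helper T (TFH) cells enter B cell follicles through the receptor CXCR5, help B cells with the cytokine IL-21 and are governed by the repressor Bcl6, while TH17 cells make the cytokine IL-17. The transcription factor c-Maf, the product of Maf, acts in both and promotes IL-10 and IL-21, and TGF-β, which signals through SMAD proteins, is required for TH17 cells in mice. Activated T cells divide quickly, and low oxygen stabilises the factor HIF-1, which switches on genes of glucose uptake and glycolysis.

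The 11 libraries held 4481509 to 9245808 counts each, with the TfhA_4e4 libraries (4481509 to 8207111) all below the Tfh2_1e4 libraries (8272173 to 9245808). Counts of genes with a symbol overlapped, at 2272234 to 4517300 in TfhA_4e4 and 4419529 to 5298761 in Tfh2_1e4. Mitochondrial ribosomal RNA took 15% ± 2.21 (SD, n = 5) of the counts of genes with a symbol in TfhA_4e4 and 8.47% ± 1.48 (SD, n = 6) in Tfh2_1e4. The range of that share in TfhA_4e4 was 12.7% to 17.5%, above every other library of the series, of which the highest had 11.6%. Malat1, a nuclear noncoding RNA, was at 1616 to 2281 CPM (counts scaled to the normalised total of each library) against 489.7 to 732 CPM. Total depth, the mitochondrial share and Malat1 thus moved with the group. The part of depth and Malat1 in the results was not tested. For the mitochondrial share, the values of a fit with it as a covariate are given beside the calls and counts it changed most. List medians that it moved are given in the last paragraph. T cell genes were present in both groups, with Cd3e at 140.0 ± 22.1 CPM (SD, n = 5) in TfhA_4e4 and 161 ± 18.4 CPM (SD, n = 6) in Tfh2_1e4, and Cd4 at 96.4 ± 17.4 and 81.8 ± 10.4 CPM (log2 fold change 0.24). Cd4 did not pass, except without TfhA_4e4 replicate 1 or with upper-quartile scaling (0.30 in both). Wherever 2 means follow each other without a group name, TfhA_4e4 comes first. Of the 10 genes of T cell identity 0 rose and 3 fell, namely the kinase genes Lck (log2 fold change -0.62) and Zap70 (-0.59) and the surface protein gene Thy1 (-0.53). None of the 3 passed with the covariate, where their values were -0.21, -0.30 and -0.21. The 5 B cell markers summed to at most 0.94 CPM in TfhA_4e4 and 0.557 CPM in Tfh2_1e4 with Cd79a at 0 counts in both. The 6 myeloid markers summed to at most 2.35 and 1.83 CPM. Of the 4 natural killer markers Ncr1 and Klra8 had 0 counts in both groups, and the sum was 1.59 to 5.75 CPM in TfhA_4e4 and 3.46 to 9.87 CPM in Tfh2_1e4, nearly all from Klrd1. The 4 gamma-delta T cell markers summed to 3.29 to 9.10 CPM in TfhA_4e4 and 1.98 to 8.44 CPM in Tfh2_1e4. Trdc, the only 1 of them tested, did not pass (log2 fold change 0.58). Cd8a was at 0.119 ± 0.267 and 0.0654 ± 0.160 CPM. Cd8b1 rose from 5.59 ± 0.896 to 9.69 ± 3.35 CPM (log2 fold change 0.79), and did not pass without TfhA_4e4 replicate 1 (0.56). In bulk RNA, fewer cells of a type and less RNA per cell cannot be told apart.

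With edgeR, 4711 of 11357 genes (41.5%) passed an adjusted p of 0.05 for TfhA_4e4 against Tfh2_1e4. Of these, 2459 (21.7%) were higher in TfhA_4e4, 1342 of them more than 2-fold, and 2252 (19.8%) were lower, 876 of them more than 2-fold. The median log2 fold change of all genes tested was 0.00734. The libraries of the groups did not overlap for 3073 genes (27.1%), of which 1635 (14.4%) were higher and 1438 (12.7%) lower in TfhA_4e4. With the mitochondrial share as a covariate 2806 genes passed, 1350 higher and 1456 lower. Against Tfh2_4e4, 3711 genes (32.7%) passed, of which 1751 were higher (1120 with the covariate), and between Tfh2_4e4 and Tfh2_1e4 3718 (32.7%). Counts of list members are read against these shares. The filter on low counts keeps a gene that is high in 1 group alone, so counts and medians over the members that passed it describe those members and support nothing further.

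**Figure D1:**
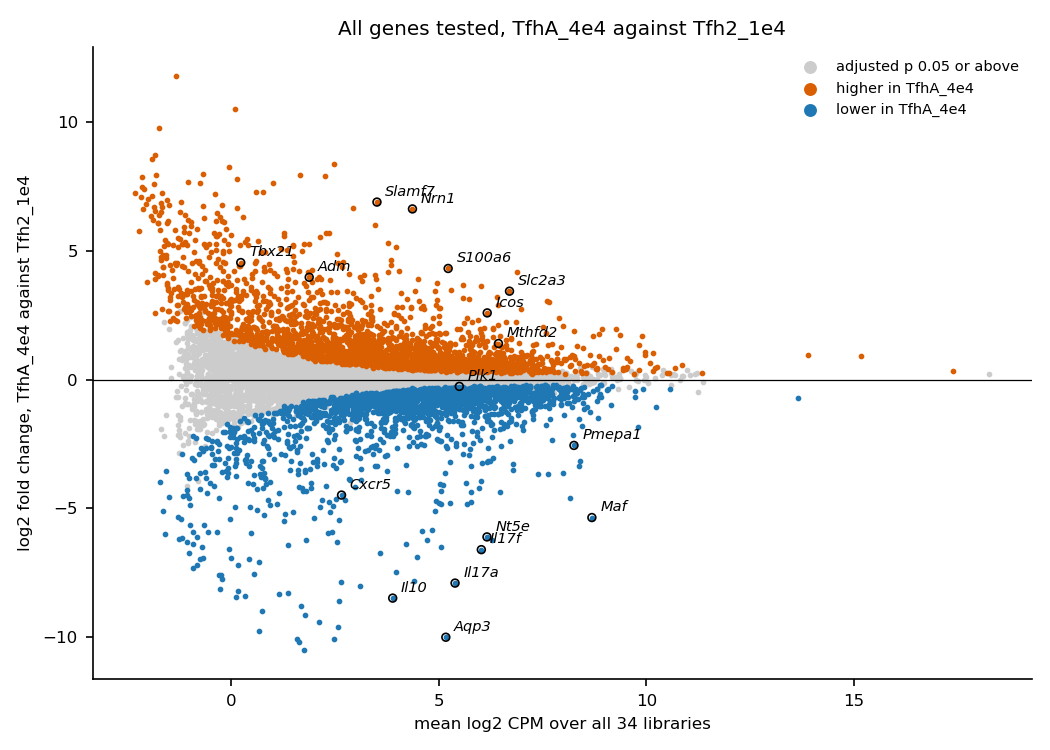
Log2 fold change of TfhA_4e4 against Tfh2_1e4 (vertical axis) for the 11357 genes tested against the mean log2 CPM over all 34 libraries (horizontal axis). Orange points are genes called higher in TfhA_4e4 (2459), blue points genes called lower (2252), grey points the others, and ringed points are named in the text.

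The genes that define helper T cell lineages separated the groups widely. Maf (gene 17132, chr8:115703253-115706894 in GRCm38.p6) stood at 17.1, 19.9, 15.4, 22.5 and 19.3 CPM in the 5 TfhA_4e4 libraries, and at 699.7, 769 and 898 CPM (lowest, median, highest) in the 6 Tfh2_1e4 libraries. No TfhA_4e4 library came near the Tfh2_1e4 range, with a log2 fold change of -5.37 (SE 0.131) and an edgeR adjusted p of 3.19e-37. Il17a, the cytokine gene that names TH17 cells, was at 0.596, 0.207, 0.994, 0.718 and 0.94 CPM against 129, 159 and 259.8 CPM, with a log2 fold change of -7.92 (SE 0.439, edgeR adjusted p = 1.95e-15). All TfhA_4e4 libraries lay below 1 CPM of Il17a. Its neighbour Il17f fell by 6.62 on the log2 scale, from 166 ± 23.5 CPM (SD, n = 6) to 1.66 ± 0.659 CPM (SD, n = 5).

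Cxcr5 (gene 12145, chr9:44511787-44526444), the follicle-homing receptor of TFH cells, was at 1.99, 0.621, 0, 0.599 and 0.235 CPM against 11.8, 14.6 and 19.96 CPM. The groups did not overlap, and the log2 fold change was -4.49 (SE 0.378, edgeR adjusted p = 9.86e-15). Il10, an inhibitory cytokine gene, had 1 count over all TfhA_4e4 libraries and 1084 over the Tfh2_1e4 libraries, a ratio of 533 in CPM (95% interval 95.5 to 21070, which covers counting error only, as do the other intervals and bounds).

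Il21 fell much less than the IL-17 genes. It was at 29.2, 37.7, 38.3, 34.4 and 31.7 CPM in TfhA_4e4 and at 60.3, 66.6 and 85.0 CPM in Tfh2_1e4, with a log2 fold change of -1.01 (SE 0.125, edgeR adjusted p = 1.46e-09). Icos, a costimulatory receptor of TFH cells, moved the other way, with 282, 204, 222, 241 and 247 CPM against 31.2, 37.9 and 56.5 CPM. Its log2 fold change was 2.59 (SE 0.162, edgeR adjusted p = 3.31e-17), and every TfhA_4e4 library was above every Tfh2 library of any number.

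Tbx21 (gene 57765, chr11:97098007-97115331), which encodes the TH1 factor T-bet, was at 22.1, 37.7, 35.9, 26.5 and 27.7 CPM in TfhA_4e4 and at 0.548, 1.16 and 1.96 CPM in Tfh2_1e4. The log2 fold change was 4.55 (SE 0.687, edgeR adjusted p = 2.46e-06), with no overlap. Gata3, the TH2 factor, rose from 4.29 ± 1.62 CPM (SD, n = 6) to 18 ± 5.76 CPM (SD, n = 5). Il2ra, the IL-2 receptor alpha chain, fell by 0.39 on the log2 scale, from 1221 ± 65.3 to 934 ± 93.4 CPM. Pdcd1, which encodes the inhibitory receptor PD-1, was at 59.2, 45.3, 44.9, 38 and 35.2 CPM against 83.9, 96.3 and 119.8 CPM. Its log2 fold change of -1.17 (edgeR adjusted p = 8.22e-07) became -0.51 (edgeR adjusted p = 0.221) with the mitochondrial share as a covariate.

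Several lineage genes were too low to test. Bcl6 had 6 counts over the TfhA_4e4 libraries and 13 over the Tfh2_1e4 libraries, and Prdm1, which encodes the opposing repressor Blimp-1, had 16 and 20. Most of the Prdm1 counts in TfhA_4e4 came from replicate 5 (1.56 CPM), the other 4 libraries being at 0 to 0.47 CPM. Foxp3, which directs regulatory T cells, had 0 counts in TfhA_4e4 and 62 in Tfh2_1e4, where its libraries ranged from 0.208 to 3.2 CPM. It was at least 10.2-fold lower in TfhA_4e4, with 3 counts over the group as the floor, and at least 6.41-fold lower without Tfh2_1e4 replicate 1. Il4 had 0 counts in both groups and Ifng, the TH1 cytokine gene, 0 and 9, all 9 of them in Tfh2_1e4 replicate 2. Il13, a TH2 cytokine gene, had 32 counts in TfhA_4e4 and 0 in Tfh2_1e4, at least 21.7-fold higher.

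**Figure D2:**
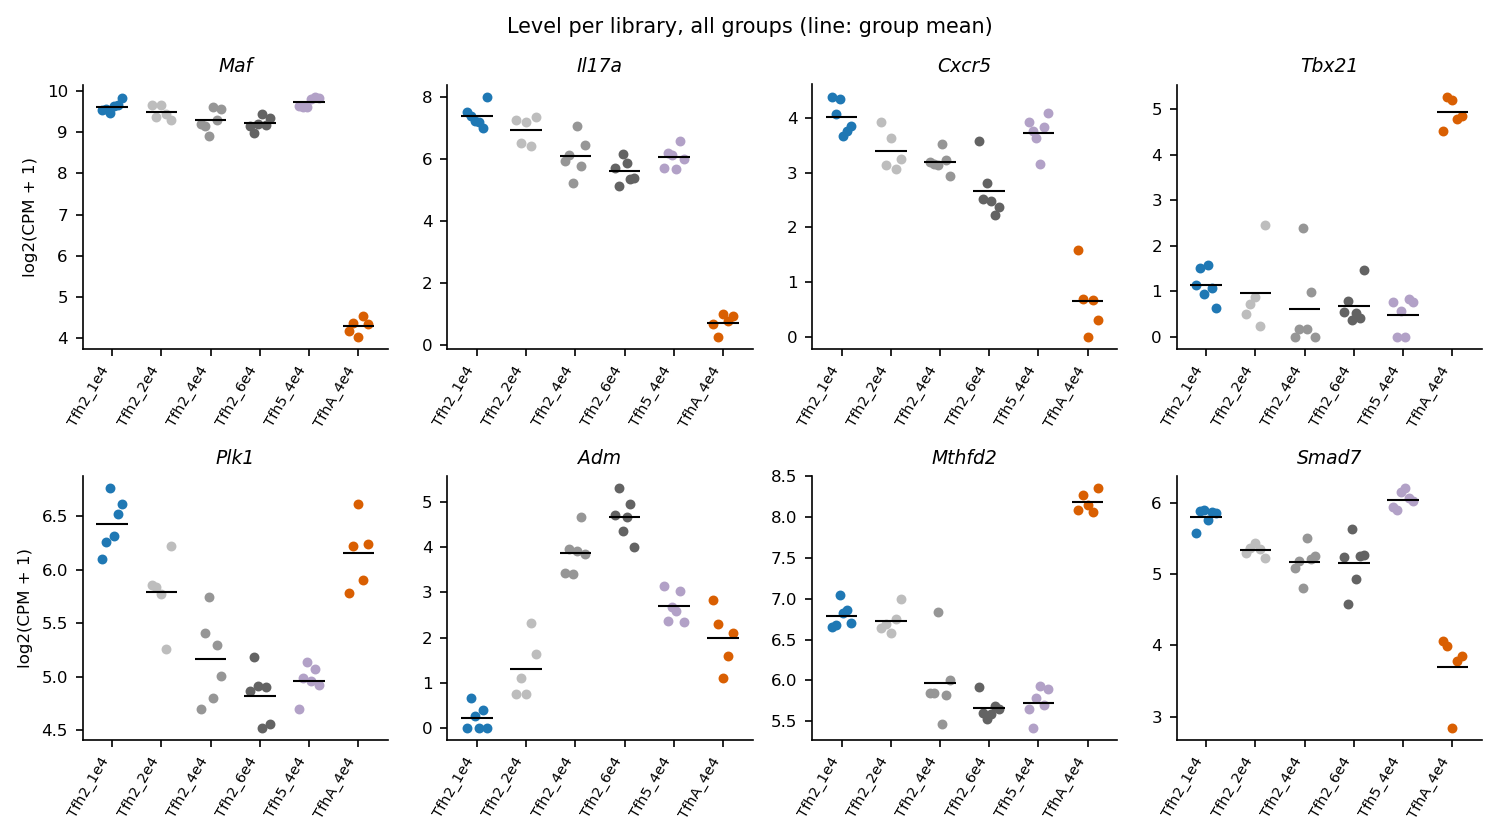
Log2(CPM + 1) of 8 genes in each of the 34 libraries, grouped by label, with a line at the group mean. Maf, Il17a, Cxcr5 and Smad7 are lower and Tbx21 and Mthfd2 higher in all 5 TfhA_4e4 libraries than in every other library, whereas the TfhA_4e4 points of Plk1 overlap those of Tfh2_1e4 and those of Adm lie between Tfh2_1e4 and Tfh2_4e4.

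The list of TH17-associated genes fell as a group. Of 15 members 13 were tested, and 11 of these were lower and 2 higher in TfhA_4e4, with a median log2 fold change of -2.40 against 0.00734 for all genes. All 13 were also without overlap between the groups. Ccl20, the chemokine that attracts CCR6-bearing cells, had 0 counts in TfhA_4e4 and 1466 in Tfh2_1e4, at least 240.3-fold lower, although its Tfh2_1e4 libraries spread from 11.6 to 65.1 CPM and the bound was 152.3-fold without replicate 6, the highest. The median of the list is the same with Ccl20 set at its bound. Tmem176a, a membrane protein gene, fell by 6.40 on the log2 scale, from 39.5 ± 7.85 to 0.4 ± 0.325 CPM. The 2 rises were Il23r, the receptor that sustains TH17 cells (2.67 ± 1.26 to 21.3 ± 5.38 CPM, log2 fold change 2.99), and Il24, an IL-10 family cytokine gene (1.62 ± 0.994 to 22.6 ± 3.46 CPM, 3.81).

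Genes that respond to SMAD signalling also fell. Of 18 members 15 were tested, and 12 of these were lower and 2 higher, with a median of -1.86 that is the same with Tgfbi at its bound. Smad7, the inhibitory SMAD that TGF-β itself induces, was at 15.7, 14.9, 6.13, 12.7 and 13.4 CPM in TfhA_4e4 and at 46.6, 57.1 and 59.0 CPM in Tfh2_1e4. The third of these TfhA_4e4 libraries was the lowest, the groups did not overlap, and the log2 fold change was -2.15 (SE 0.163, edgeR adjusted p = 2.64e-16). Pmepa1, which restrains SMAD signalling, was at 117, 105, 119.6, 97.6 and 109 CPM against 616, 644 and 685 CPM (log2 fold change -2.56). The corepressor gene Skil fell by 3.17 and Ldlrad4, another inhibitor of the pathway, by 5.10 on the log2 scale. Tgfbi, an extracellular matrix gene named for its induction by TGF-β, had 0 counts in TfhA_4e4 and 16.8, 18.6 and 23.6 CPM in Tfh2_1e4, at least 185-fold lower. Against Tfh2_4e4, the log2 fold changes were -1.50 for Smad7, -1.31 for Pmepa1, -2.67 for Skil and -4.95 for Ldlrad4.

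TFH-associated genes were divided. Of 25 members 23 were tested, of which 12 rose and 11 fell, with a median of 0.45, which turned to -0.56 under a stricter filter on low counts and to -0.05 in a fit of the 2 groups alone. With the mitochondrial share as a covariate 7 rose and 7 fell. Beside Cxcr5 the large falls included Tox2, a transcription factor gene of TFH cells (5.27 ± 1.43 to 0.259 ± 0.241 CPM, log2 fold change -4.32), and Angptl2, a secreted angiopoietin-like protein gene (118 ± 19.4 to 5.75 ± 1.58 CPM, -4.35). Rises beside Icos included Btla, an inhibitory receptor (5.76 ± 1.54 to 65.6 ± 9.52 CPM, 3.51), and Cd200, a ligand of an inhibitory receptor (10.2 ± 2.29 to 104 ± 16 CPM, 3.35).

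Of 20 TH1-associated genes 16 were tested, of which 11 rose and 3 fell, with a median of 1.46, and 1 fell with the mitochondrial share as a covariate. The chemokine receptor Cxcr3, a target of T-bet, rose from 1.47 ± 0.258 to 28.8 ± 5.49 CPM (log2 fold change 4.28), the IL-12 receptor chain Il12rb2 from 0.561 ± 0.491 to 22.3 ± 5.27 CPM (5.25) and the cytotoxic granule gene Nkg7 from 2.22 ± 0.702 to 106 ± 15.4 CPM (5.57). Stat4, which carries the IL-12 signal, rose by 1.5. Cxcr6, a receptor of tissue-homing effector cells, went the other way, from 60.5 ± 9.73 to 0.806 ± 0.875 CPM (-6.26). Of 12 TH2-associated genes only 5 were counted well enough to test, of which 4 rose and 1, the phosphatase gene Dusp4, fell (-1.87). Against Tfh2_4e4 1 of the 5 was higher and 2 lower (median -0.02). At 4e4 against 1e4 within Tfh2 4 were higher and 1 lower (median 0.72).

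The list of genes associated with regulatory T cells held 14 tested members, 5 higher and 7 lower, with a median of 0.04. The rises included members of the tumour necrosis factor receptor family and Lrrc32. Lrrc32 was at 28.8, 41.6, 26.5, 33.2 and 27.7 CPM in TfhA_4e4 and at 0.934 to 2.73 CPM in Tfh2_1e4. Tnfrsf9 (4-1BB) rose from 20.2 ± 3.98 to 369 ± 46.1 CPM (log2 fold change 4.19), Tnfrsf18 (GITR) from 63.5 ± 2.85 to 507 ± 24 CPM (3.00) and Tnfrsf4 (OX40) from 103 ± 12.3 to 427 ± 35.4 CPM (2.06). Nt5e, which encodes the adenosine-producing enzyme CD73, fell by 6.12, from 169.6 ± 20.7 to 2.34 ± 0.756 CPM, and Ctla4, an inhibitory receptor, by 1.05.

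Of 10 tested co-inhibitory receptors and their ligands 4 rose and 3 fell. Cd274, which encodes PD-L1, rose from 1.1 ± 0.794 to 21.3 ± 6.00 CPM (log2 fold change 4.28), and Cd101 fell from 68.4 ± 7.21 to 0.749 ± 0.386 CPM (-6.50). Among 15 tested cytokine and chemokine genes 6 rose and 6 fell. Il3, a cytokine for myeloid growth, was at 14.3, 13.5, 14.1, 9.46 and 13.4 CPM in TfhA_4e4 and had 4 counts over all Tfh2_1e4 libraries. Lta, which encodes lymphotoxin alpha, rose by 1.05, and Il9 fell from 5.29 ± 1.89 CPM to 2 counts over the group, a ratio of 75.2 (95% counting interval 20.6 to 624). Il2 itself was at 2.11 ± 1.58 and 1.06 ± 0.633 CPM (edgeR adjusted p = 0.273).

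Homing and adhesion receptors numbered 22 tested, of which 12 rose and 8 fell. Against Tfh2_4e4 5 of them were higher and 8 lower. Itga4, the integrin alpha 4 chain, rose by 2.00. Gpr15, a receptor for homing to the colon, had 2 counts in TfhA_4e4 and 1336 in Tfh2_1e4, a ratio of 328 (95% counting interval 90.7 to 2715). Ccr7, a lymph node homing receptor, was at 117 ± 16.6 and 126 ± 9.79 CPM (edgeR adjusted p = 0.542).

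Among 18 tested genes of naive and quiescent T cells 5 rose and 8 fell. The transcription factor genes Bach2 and Foxo1 fell by 1.54 and 1.39, from 404 ± 30.3 to 139 ± 15.6 CPM and from 233 ± 22.5 to 88.8 ± 7.89 CPM. Bcl2, the survival gene, rose from 20.4 ± 2.59 to 141 ± 11.6 CPM (log2 fold change 2.79). Klf2 was at 6.15 ± 2.74 and 8.32 ± 3.44 CPM (edgeR adjusted p = 0.246).

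The 10 largest rises among well-counted genes without overlap included, beside Tnfrsf9, Slamf7, a receptor of activated lymphocytes, at 90.2, 76, 67.2, 84.9 and 70.5 CPM against 0 to 1.32 CPM (log2 fold change 6.90). They also included Nrn1, which encodes neuritin, at 282, 303, 291, 392 and 398 CPM against 1.08, 1.87 and 7.25 CPM (6.63), Gimap7, a GTPase gene of lymphocytes (5.32), and S100a6, a calcium-binding protein gene (4.32). Among the 11 tested genes of S100 proteins, annexins, galectins and related proteins 8 rose and 1 fell, with a median of 1.70. S100a4 rose from 7.21 ± 1.26 to 105 ± 22.1 CPM (3.87) and Lgals3, which encodes galectin-3, from 15.5 ± 3.22 to 108 ± 7.75 CPM (2.80).

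The 10 largest falls, beside Il10, Il17a, Il17f, Gpr15 and Cd101, were led by Aqp3, a water and glycerol channel gene. Aqp3 had 3 counts over the 5 TfhA_4e4 libraries and stood at 107, 120.1 and 156 CPM in Tfh2_1e4, a ratio of 1193 (95% counting interval 408 to 5788). Agap1, a regulator of endosome traffic, fell by 6.92, from 69.8 ± 3.87 to 0.543 ± 0.174 CPM. Peli2, a ubiquitin ligase gene, fell by 7.49, and Sgk1, a salt-responsive kinase gene, by 6.73, from 31.7 ± 4.19 to 0.309 ± 0.297 CPM.

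**Figure D3:**
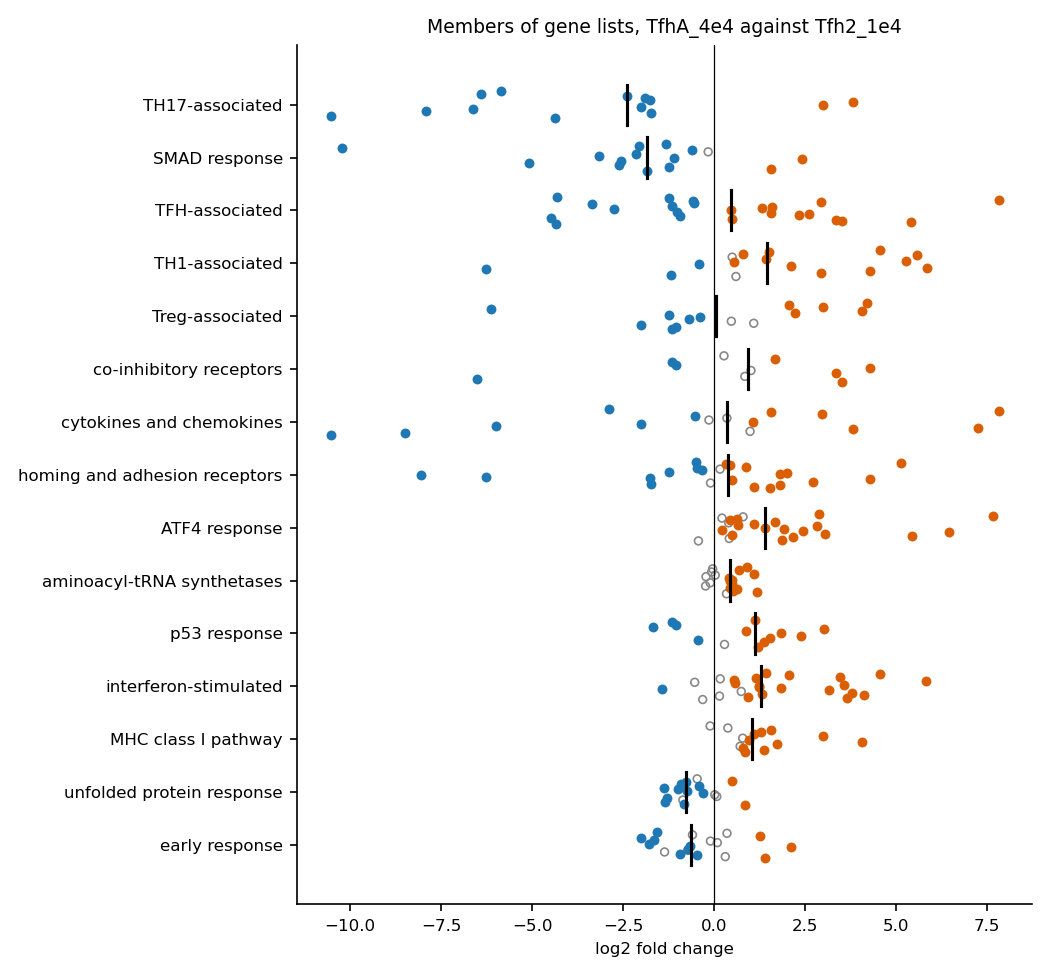
Log2 fold change of TfhA_4e4 against Tfh2_1e4 for each tested member of 15 gene lists, with a black bar at the median. Filled orange and blue points passed an adjusted p of 0.05 (higher and lower) and open points did not: TH17-associated and SMAD response members lie mostly to the left, ATF4 response and interferon-stimulated members mostly to the right, and TFH-associated members on both sides.

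Genes of the integrated stress response, which the transcription factor ATF4 switches on when amino acids run short or proteins misfold, were higher in TfhA_4e4. Of 27 members 23 were tested, of which 18 rose and 0 fell, with a median of 1.40. With the mitochondrial share as a covariate 10 rose. The first letters of the composite motif of ATF4 and C/EBP, TGATGNA, were searched for in the promoters of the list. The stretches below show a match in capitals (TGATGNA or its reverse complement) in 3 members. Each reaches from 30 bases before the match to 30 after it or to the transcription start. They come from RefSeq promoters (GRCm38.p6) and are written 5′ to 3′ on the strand of the gene. Pck2 and Chac1 were chosen after their values were seen.
Asns, chr6:7693210-7693262, minus strand: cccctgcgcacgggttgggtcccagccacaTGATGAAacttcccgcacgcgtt
Pck2, chr14:55540134-55540200, plus strand: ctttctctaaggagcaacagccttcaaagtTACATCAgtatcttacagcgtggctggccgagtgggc
Chac1, chr2:119351020-119351086, plus strand: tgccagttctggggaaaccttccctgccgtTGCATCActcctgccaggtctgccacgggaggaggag

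The motif, searched on both strands in the 250 bases before each annotated start, was present in 9 of the 24 list genes with a promoter in the table (37.5%). The share was 11.9% of all 27025 genes with a promoter and 7.56% of the 8853 tested ones, counting a gene with several starts once if any of them matched. The 9 include Mthfd2 and Slc7a11, whose window lies at an internal start. Slc7a11, Nupr1 and Pycr1, also among the 9, did not pass the filter on low counts. Among genes with a window within 100 bases of their outermost start, a choice made after seeing the data, 7 of 20 list genes (35%), 11% of all and 6.24% of tested ones held the motif. A match is a description of the letters and not a measured site.

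Asns, which makes asparagine, was at 45.1, 28.8, 40.7, 40.1 and 41.1 CPM in TfhA_4e4 and at 6.65, 10.7 and 14.6 CPM in Tfh2_1e4. The second TfhA_4e4 library was the lowest and still lay above the Tfh2_1e4 range (log2 fold change 1.87, SE 0.228, edgeR adjusted p = 1.06e-09). Mthfd2, a mitochondrial enzyme of folate metabolism, was at 271, 309, 283, 267 and 327 CPM against 99.6, 108 and 131 CPM (1.40). Pck2, the mitochondrial PEPCK, rose from 9.91 ± 2.33 to 70.4 ± 5.55 CPM (2.83). Chac1, which degrades glutathione, rose from 1.32 ± 0.752 to 11.1 ± 3.57 CPM (3.05), a call that was lost with the covariate at about the same size (3.11).

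The regulators Trib3 and Ddit3 (CHOP) rose by 2.89 and 2.44, the serine synthesis gene Psat1 by 1.08, and Stc2, which encodes stanniocalcin-2, from 5 counts over the Tfh2_1e4 libraries to 20.7 ± 4.14 CPM (7.66). Transfer RNA synthetase genes moved less: 11 of 18 rose and 0 fell, with a median of 0.44, among them Cars (1.16), Sars (1.09) and Yars (0.90), whereas Wars was at 21 ± 4.06 and 21.6 ± 3.59 CPM (edgeR adjusted p = 0.858). Chaperone genes of the unfolded protein response, which senses stress in the endoplasmic reticulum, went the other way against Tfh2_1e4. Of 16 tested members 10 fell and 2 rose, with a median of -0.76, and with the mitochondrial share as a covariate 6 fell and 0 rose. Against Tfh2_4e4 2 were lower and 2 higher (median -0.15). At 4e4 against 1e4 within Tfh2 9 fell and 1 rose (median -0.46). Hspa5 (BiP) fell from 474 ± 42.6 to 283 ± 23.8 CPM (-0.75), Manf by 1.38 and Dnajc3 by 1.30, and Xbp1 was at 42.5 ± 8.26 and 59 ± 10.9 CPM (-0.47, edgeR adjusted p = 0.106). Xbp1 passed without Tfh2_1e4 replicate 5 (-0.59) and with only the groups compared in the fit (-0.47).

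Of 13 tested genes of the p53 response 8 rose and 4 fell, with a median of 1.12. Cdkn1a, which encodes the cell-cycle inhibitor p21, was at 477, 401, 427, 489 and 400.3 CPM in TfhA_4e4 and at 70.3, 85.5 and 93.8 CPM in Tfh2_1e4, without overlap (log2 fold change 2.37, SE 0.126, edgeR adjusted p = 2.35e-21). Phlda3, an inhibitor of AKT, rose by 3.01, the death gene Bbc3 by 1.37 and Mdm2, the ubiquitin ligase of p53, by 0.88. Pmaip1, another death gene of the list, fell by 1.68, and Bax was at 2.77 ± 1.11 and 2.3 ± 1.12 CPM (edgeR adjusted p = 0.638).

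Interferon-stimulated genes were higher as well: of 30 members 24 were tested, and 18 of these rose and 1 fell, with a median of 1.28. With the mitochondrial share as a covariate 11 rose. Trim30a, an inhibitor of inflammatory signalling, was at 157, 129, 136, 155 and 169 CPM in TfhA_4e4 and at 11, 12.9 and 17.9 CPM in Tfh2_1e4 (log2 fold change 3.46, SE 0.271, edgeR adjusted p = 2.91e-12). Ifi27l2a rose from 23.6 ± 3.52 to 210.1 ± 29.7 CPM (3.15) and the guanylate-binding protein gene Gbp7 from 1.67 ± 0.881 to 23.1 ± 4.10 CPM (3.79).

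Of 14 tested genes of MHC class I antigen presentation 10 rose and 0 fell, with a median of 1.03. B2m, the light chain of class I molecules, was at 856, 931, 852, 1007 and 1018 CPM against 468, 521 and 574 CPM (log2 fold change 0.84). The peptide transporter gene Tap1 rose by 1.56, H2-D1 by 1.38 and Nlrc5, the transactivator of class I genes, by 2.99. H2 genes are close copies of each other, and the counting of reads that match several of them is not given, so the split between them is uncertain.

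Mitosis genes differed by less than 2-fold. Plk1 (gene 18817, chr7:122159435-122169884), a mitotic kinase, was at 54.1, 73.7, 97.1, 59 and 74.5 CPM in TfhA_4e4 and at 67.5, 84.7 and 108 CPM in Tfh2_1e4. The ranges overlapped and the log2 fold change was -0.27 (SE 0.162), which did not pass. Without TfhA_4e4 replicate 3, the highest of its group, Plk1 passed at -0.41, and with the replicate number as a block it passed at -0.32. Of 24 tested mitosis genes 15 fell and 0 rose, with a median of -0.42, and none of the 15 fell more than 2-fold. Mki67, the proliferation marker, was at 156 ± 34.1 and 274 ± 44.3 CPM (-0.81), Ccna2 at 46.9 ± 4.47 and 80.9 ± 8.87 CPM (-0.79) and Cdk1 at 101 ± 28.6 and 114 ± 12 CPM (-0.18, not passed). With the mitochondrial share as a covariate 7 mitosis genes fell, and Ccna2 no longer passed (-0.41).

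Against Tfh2_4e4 the mitosis list stood on the other side. There 18 of 24 mitosis genes were higher in TfhA_4e4 and 0 lower, with a median of 0.74 and 0 higher by more than 2-fold, where 15.4% of all genes were called higher and 17.3% lower. Plk1 was 0.99 higher on the log2 scale in that comparison (edgeR adjusted p = 3.62e-06). Between the Tfh2 groups, as a description of how the reference was picked, 23 of 24 mitosis genes were lower at 4e4 than at 1e4 and 0 higher, with a median of -1.07, where 14.4% of all genes were called lower and 18.4% higher. The log2 fold change of Plk1 there was -1.26.

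Genes of DNA replication followed the same order. Of 26 tested members 10 were lower and 1 higher in TfhA_4e4 than in Tfh2_1e4, with a median of -0.21, and 20 were higher and 0 lower than in Tfh2_4e4, with a median of 0.90. With the mitochondrial share as a covariate 3 were lower and 2 higher, and the median against Tfh2_1e4 was 0.03. The falls against Tfh2_1e4 included Rrm2, which makes deoxyribonucleotides (48.1 ± 6.74 to 17 ± 3.49 CPM, log2 fold change -1.5, and -0.57 without a call when the covariate was fitted), and Gins1, a part of the replicative helicase (-1.54). Pcna, the sliding clamp, was at 58.2 ± 6.80 and 67.4 ± 9.02 CPM (-0.21, not passed). The 1 rise was Rfc3, a clamp loader subunit (34.1 ± 5.57 to 80.5 ± 7.04 CPM, 1.24).

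The mean level of the mitosis list placed TfhA_4e4 beside Tfh2_2e4. It was 5.91 ± 0.0829 log2 CPM (SD, n = 5) in TfhA_4e4 and 5.92 ± 0.123 (SD, n = 5) in Tfh2_2e4, whose ranges overlapped, between 6.35 ± 0.0749 (SD, n = 6) in Tfh2_1e4 and 5.24 ± 0.128 (SD, n = 6) in Tfh2_4e4. The remaining groups, Tfh5_4e4 and Tfh2_6e4, lay lower, at 5.01 ± 0.0974 and 4.93 ± 0.104, and their ranges also overlapped.

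Genes of the hypoxia response were higher in TfhA_4e4 than in Tfh2_1e4: 14 of 21 tested members rose and 2 fell (1 with the covariate), with a median of 1.04. Adm (gene 11535, chr7:110627657-110629820), which encodes the vessel-dilating peptide adrenomedullin, was at 6.16, 3.93, 1.16, 2.04 and 3.29 CPM in TfhA_4e4 and at 0, 0.104 and 0.589 CPM in Tfh2_1e4. The TfhA_4e4 libraries spread widely and all lay above the Tfh2_1e4 range (log2 fold change 3.98, SE 0.565). Against Tfh2_4e4 Adm was lower by 2.13 (edgeR adjusted p = 2.33e-05). Hilpda, a lipid droplet protein gene, was at 223, 228, 217, 184 and 141 CPM against 23.4, 30.6 and 34.8 CPM (2.74), and was at 218 CPM on average in Tfh2_4e4 (log2 fold change -0.14, edgeR adjusted p = 0.404).

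HIF-1 binds a core of 5 letters, of which only the form ACGTG was searched for. Below, 2 promoters of the list that hold it show the match in capitals, on either strand. Each stretch runs from 30 bases before the match to 30 after it or from the edge of the window. Here too a match describes the letters and is not a measured site. Bnip3 was chosen after its values were seen.
Egln3, chr12:54204069-54204124, minus strand: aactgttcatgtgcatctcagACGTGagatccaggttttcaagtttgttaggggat
Bnip3, chr7:138909579-138909644, minus strand: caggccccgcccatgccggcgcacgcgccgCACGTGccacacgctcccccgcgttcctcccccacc

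In Bnip3 the core lies on both strands in 6 overlapping letters. The core was present in 13 of the 19 hypoxia list genes with a promoter in the table (68.4%), in 18.5% of all 27025 genes with one and in 25.9% of the 8853 tested ones. The 13 include Vegfa, Hilpda, Mxi1, Ankrd37 and Ak4, whose windows lie at an internal start. With windows within 100 bases of the outermost start alone, the core was in 8 of 15 list genes (53.3%), in 16.4% of all and in 23.3% of tested ones. Egln3, an oxygen-sensing hydroxylase that is itself induced by HIF-1, was at 305, 295, 275, 282 and 246 CPM against 119, 153 and 164 CPM, a log2 fold change of 0.93 against Tfh2_1e4 and of -0.54 against Tfh2_4e4. Bnip3, a mitophagy receptor, rose by 1.32 and was 0.91 lower than in Tfh2_4e4. Ndrg1, a stress-response gene, rose by 3.21 and P4ha2, which encodes a collagen hydroxylase, by 2.76. Against Tfh2_4e4 their log2 fold changes were -0.76 and -0.60, and that of P4ha2 no longer passed with the covariate (-0.44). Vegfa, the angiogenic growth factor, rose by 2.46 and differed from Tfh2_4e4 by -0.02 (edgeR adjusted p = 0.933).

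Glycolysis genes went with them: 14 of 19 rose and 0 fell against Tfh2_1e4, with a median of 0.79. Slc2a3, which encodes the glucose transporter GLUT3, was at 107, 119, 106, 141 and 109 CPM in TfhA_4e4, at 8.59, 11.4 and 12.4 CPM in Tfh2_1e4 and at 269.9 CPM on average in Tfh2_4e4. Its log2 fold change was 3.43 against Tfh2_1e4 and -1.21 against Tfh2_4e4. Hk2, the inducible hexokinase, rose by 1.39, Aldoc, an aldolase, by 2.25, and Ldha was at 791 ± 148 and 681 ± 97.7 CPM (0.22, not passed). Ldha passed without TfhA_4e4 replicate 6 (0.30), with the covariate (0.84) and with the replicate block (0.20). Against Tfh2_4e4, 0 hypoxia genes were higher and 13 of 21 lower (median -0.61), and 0 glycolysis genes were higher and 11 of 19 lower (median -0.41), which became 6 with the covariate. As a description, at 4e4 against 1e4 within Tfh2 18 of 21 and 16 of 19 were higher and 0 lower.

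In mean level, the hypoxia list stood at 5.74 ± 0.115 log2 CPM in TfhA_4e4 (SD, n = 5), above Tfh2_1e4 (4.59 ± 0.193, SD, n = 6) and below Tfh2_4e4 (6.32 ± 0.139, SD, n = 6). Its range overlapped that of Tfh2_2e4 (5.59 ± 0.174, SD, n = 5) and that of Tfh5_4e4 (6.00 ± 0.0927, SD, n = 6). The glycolysis list gave 6.12 ± 0.154 in TfhA_4e4, 5.20 ± 0.134 in Tfh2_1e4, 5.97 ± 0.107 in Tfh2_2e4 and 6.58 ± 0.142 in Tfh2_4e4.

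**Figure D4:**
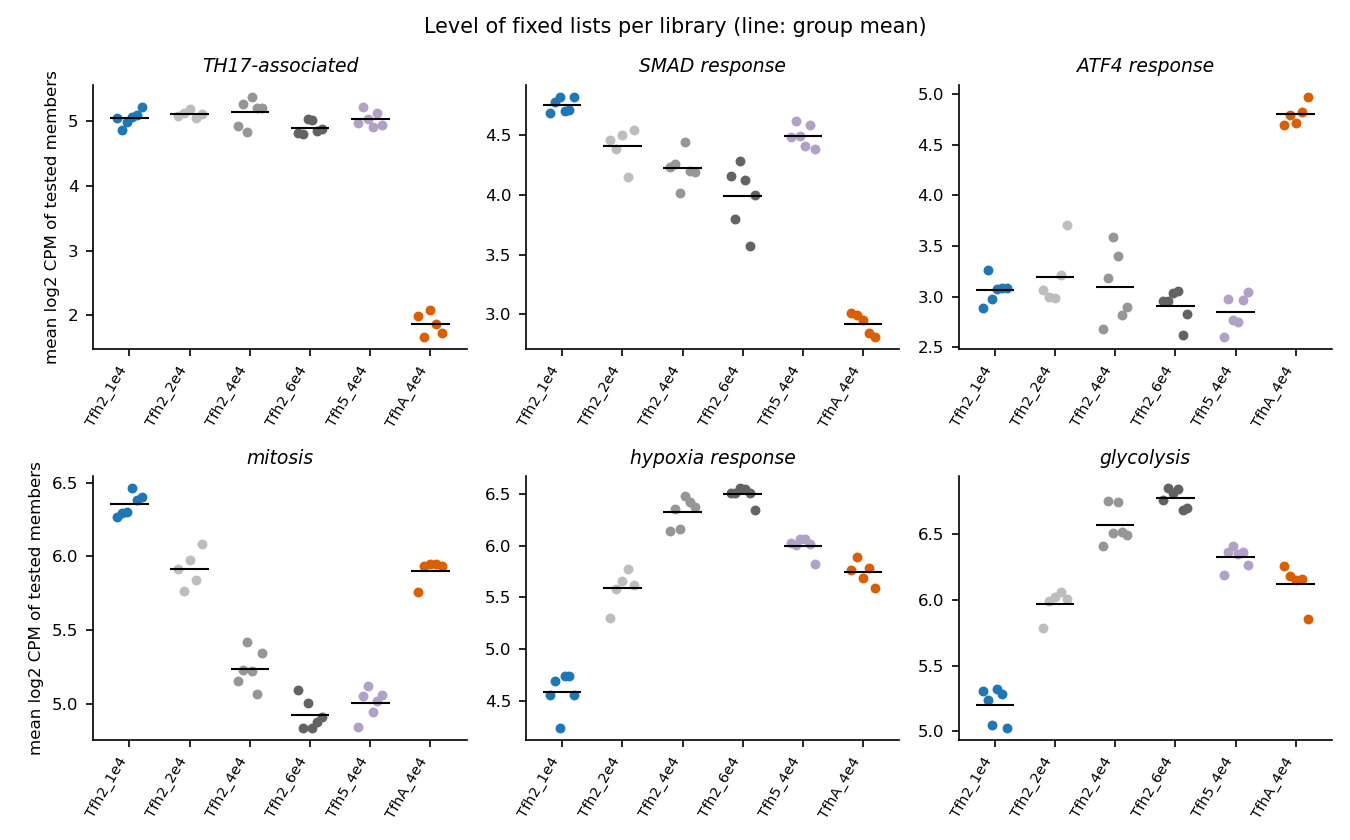
Mean log2 CPM of the tested members of 6 lists in each of the 34 libraries, grouped by label, with a line at the group mean. TfhA_4e4 lies outside every other group for the TH17-associated, SMAD response and ATF4 response lists, and among the Tfh2 groups, near Tfh2_2e4, for the mitosis, hypoxia response and glycolysis lists.

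The TH17-associated, SMAD response and ATF4 response lists kept their direction against either reference. The TH17-associated list was at 1.87 ± 0.177 log2 CPM in TfhA_4e4 (SD, n = 5) and between 4.90 and 5.14 in the mean of every other group. Against Tfh2_4e4 11 of its 13 members were lower and 1 higher (median -3.33), and between the Tfh2 groups 5 were higher and 5 lower (median -0.10). The SMAD response list was at 2.92 ± 0.0894 log2 CPM in TfhA_4e4, while the other groups had means from 3.99 (Tfh2_6e4) to 4.76 (Tfh2_1e4). Against Tfh2_4e4 9 of its 15 members were lower and 1 higher (median -0.90), and 9 were lower and 1 higher at 4e4 than at 1e4 within Tfh2 (median -0.51). The ATF4 response list was at 4.80 ± 0.110 log2 CPM in TfhA_4e4 and between 2.85 and 3.19 in the other groups, with 20 of 23 members higher and 1 lower than in Tfh2_4e4 (median 1.75). Interferon-stimulated genes had 13 of 24 members higher and 3 lower than in Tfh2_4e4 (median 0.88).

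**Figure D5:**
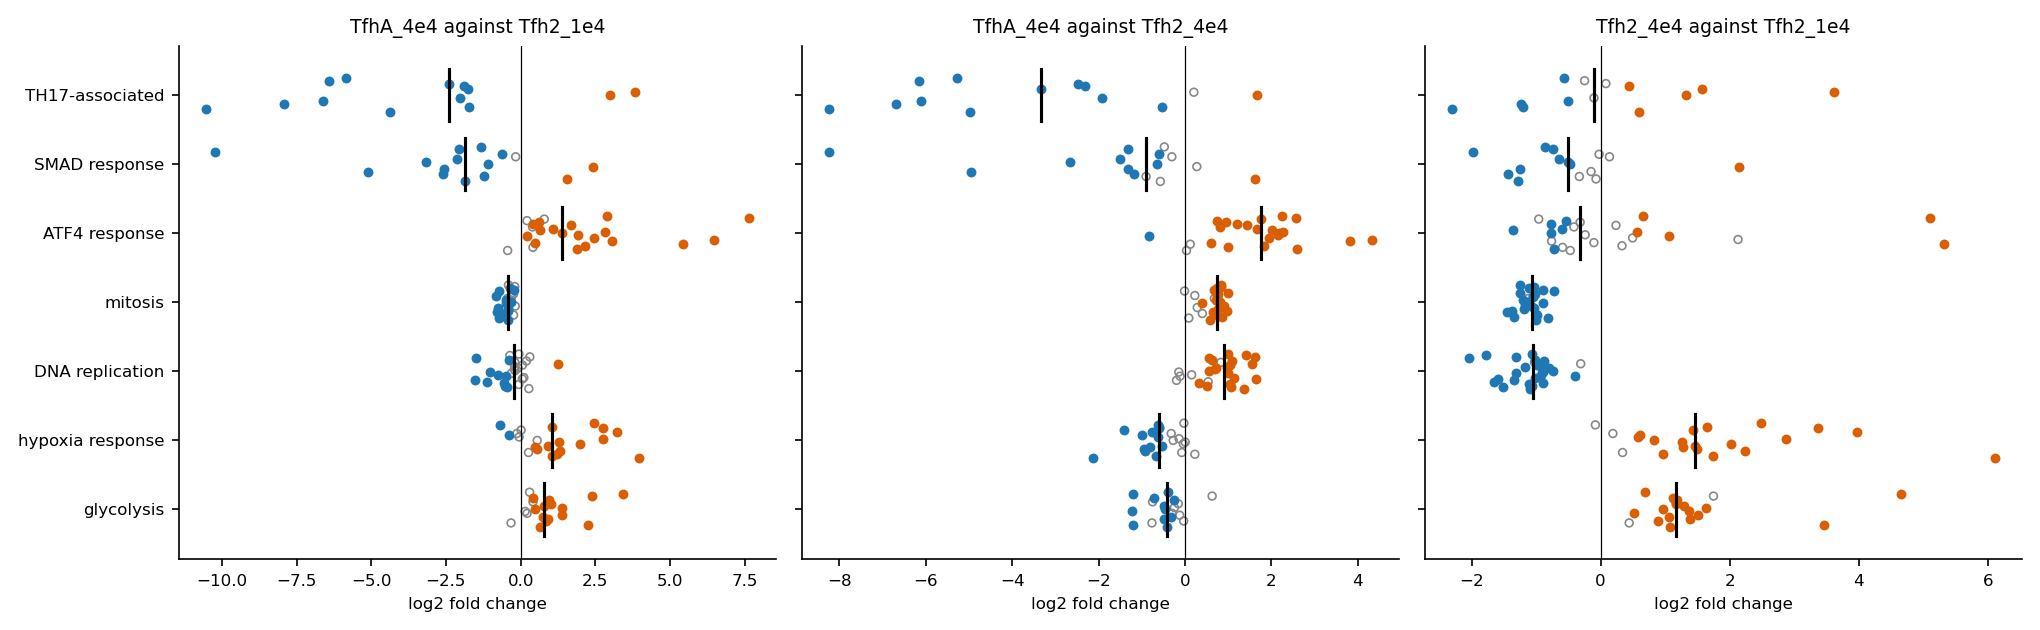
Log2 fold changes of the tested members of 7 lists in 3 comparisons, with a black bar at the median and filled points for members that passed (orange higher, blue lower); the horizontal scales differ. Mitosis medians are -0.42, 0.74 and -1.07 and hypoxia response medians 1.04, -0.61 and 1.47 from left to right, whereas TH17-associated medians are -2.40, -3.33 and -0.10. The first and second comparisons share the TfhA_4e4 libraries, and the third is their difference.

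As a count that uses no single reference, genes were taken whose 5 TfhA_4e4 libraries all lay outside the range of all 23 Tfh2 libraries. Of the genes tested, 544 (4.79%) were above that range and 490 (4.31%) below it. The TH17-associated list had 1 member above and 10 below, the SMAD response list 0 and 6, the ATF4 response list 12 and 0, the interferon-stimulated list 9 and 0, and the TFH-associated list 7 and 6. The mitosis, hypoxia response and glycolysis lists had 0 members above and 0 below, and the DNA replication list 1 and 0, the 1 being Rfc3. The range includes Tfh2_1e4, which was picked for its high cell-cycle and low hypoxia gene levels. For these lists the counts are therefore a description and support nothing. They also lie near the small shares of all genes, 4.79% and 4.31%.

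Single genes, some of them among the largest rises, also differed in how they stood against Tfh2_1e4 and against Tfh2_4e4. Enpp2, which encodes autotaxin, rose by 4.45 against Tfh2_1e4 and differed from Tfh2_4e4 by -0.86 (edgeR adjusted p = 0.0574). Without Tfh2_4e4 replicate 1 or 3 or TfhA_4e4 replicate 3 that difference passed, at -0.97, -1.01 and -0.99. Vldlr, a lipoprotein receptor, rose by 4.2 and was 0.73 lower than in Tfh2_4e4 (edgeR adjusted p = 0.000881). Slamf7 was 1.59 higher and Nrn1 3.25 higher than in Tfh2_4e4, and Slamf7 no longer passed there with the covariate (0.76). Il24 differed from Tfh2_4e4 by 0.21 (edgeR adjusted p = 0.739), while Il23r was 1.67 higher. Pdcd1, lower against Tfh2_1e4, differed from Tfh2_4e4 by 0.41 (edgeR adjusted p = 0.0790), and passed without Tfh2_4e4 replicate 3 (0.52), with the replicate block or the range of replicate numbers as a factor (0.37 in both), with upper-quartile scaling (0.47) and with the covariate (0.90).

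Of 14 tested STAT3 response genes 3 rose and 3 fell, shares close to the background of 21.7% and 19.8%. Stat3 itself fell by 0.43, which was lost with the covariate (-0.37), and Socs3 was at 0.955 ± 0.777 and 0.551 ± 0.655 CPM (edgeR adjusted p = 0.496). Of 12 tested genes of the IL-2 and STAT5 response 6 rose and 3 fell, with Cish up by 0.54 and Socs2 down by 1.34. Of 18 tested early response genes 3 rose and 8 fell, with a median of -0.63. Jun fell from 144 ± 6.81 to 41.4 ± 5.84 CPM (log2 fold change -1.80) and Egr2 from 17.6 ± 3.00 to 9.12 ± 2.39 CPM (-0.95), and Ier3 rose by 2.12. Egr2, a target of antigen receptor signals, did not pass with the covariate (-0.31).

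Biosynthetic lists had fewer calls than the background of 41.5%. Of 24 tested cholesterol and fatty acid synthesis genes 2 rose and 4 fell, with a median of -0.04. Cyp51, a sterol demethylase, fell by 0.71 and Insig1, a brake on the pathway, by 1.29 (-0.71 and no call with the covariate). Of 22 tested genes of ribosome biogenesis and Myc 1 rose and 3 fell, with a median of -0.12, and Myc was at 6.67 ± 2.74 and 8.6 ± 4.89 CPM (edgeR adjusted p = 0.453).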

How the data were processed

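Messenger RNA of 34 libraries was read from its 3' end. The authors deposited raw counts per gene identifier for each library, and per the submitters' processing notes the tools were STAR 2.7.2b and featureCounts 1.6.4 with the mouse build mm10. Of 27179 identifiers 25275 matched a symbol in the RefSeq table (GRCm38.p6), and the rest took 48.8% of all counts, 48.3% in 2 identifiers. Groups came from the titles, 6 in all.

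Differences were tested with edgeR 4.0.16 in R 4.3.3 (quasi-likelihood test, robust, TMM scaling, filterByExpr, two-sided, Benjamini-Hochberg adjustment over 11357 genes, threshold 0.05), with all 34 libraries in the fit, and the code was tested on simulated data. SE is the log2 fold change over the root of F. CPM uses the TMM-scaled total over all identifiers. limma 3.58.1 (voom), DESeq2 1.42.0, other scalings, filters, covariates and left-out libraries were alternatives.

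Named genes were all lineage genes, the first 4 of each list, the 4 called members of each list with the largest fold change whose mean log2 CPM reached 1, and the 10 largest rises and falls without overlap whose mean reached 3. The groups, lists and tests were chosen with earlier results of these data known. List level is the mean log2 CPM of tested members. Promoter letters came from RefSeq. Some genes that this rule names are not reported here.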

Additional observations from a re-analysis of the deposited data

Results flagged for a closer look

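Among the genes whose library values are given, 51 sets of values (a gene in 1 of the groups) were checked for a library far from the rest of its group, and 5 stood apart, where chance gives about 1 in 20. Ccl20 was at 65.1 CPM in Tfh2_1e4 replicate 6 and between 11.6 and 22.9 CPM in the other 5. Il3 was at 9.46 CPM in TfhA_4e4 replicate 5 and between 13.4 and 14.3 CPM in the other 4. The remaining 3 rest on very few counts in 1 library while all others of the group were at 0. They are Aqp3 in TfhA_4e4 replicate 5 (0.359 CPM), Il10 in TfhA_4e4 replicate 6 (0.235 CPM) and Il3 in Tfh2_1e4 replicate 3 (0.415 CPM).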

How the results depend on the processing

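Of 129 named genes tested against Tfh2_1e4, 104 kept direction and side of the threshold under all 23 alternatives run for them. The number of genes called was 4711. It fell to 2806 with the mitochondrial share as a covariate and to 2218 with a 2-fold minimum, and ranged from 4416 to 4641 with 1 library left out. Against Tfh2_4e4 the 2-fold minimum left 1592 of 3711 calls (3381 to 3764 with 1 library left out), and between the Tfh2 groups 1287 of 3718 (3359 to 3643). The median of the TFH-associated list turned from 0.45 to -0.56 under the stricter filter and to -0.0457 with only the 2 groups in the fit. The median of the DNA replication list turned from -0.21 to 0.0349 with the covariate, and that of the TH17-associated list between the Tfh2 groups from -0.10 to 0.0774 with no filter. Among the lists computed again, the covariate moved other medians against Tfh2_1e4 by more than 0.1. They became -1.38 (SMAD response), -2.81 (TH17-associated), 0.22 (TFH-associated), 1.26 (TH1-associated), 0.92 (hypoxia response), 1.16 (interferon-stimulated) and -0.42 (unfolded protein response). Against Tfh2_4e4 the moved medians became -0.73 (SMAD response), 1.42 (ATF4 response), 0.74 (interferon-stimulated), 1.09 (DNA replication), 0.71 (TFH-associated) and 1.75 (TH1-associated). The filter and the 2-fold minimum change which genes count by construction, and for the covariate the cause was not tested. With the replicate block 5010, 4063 and 4137 genes were called, and with the range of replicate numbers as a factor 4962, 4016 and 4008. None of 5 same-numbered pairs of TfhA_4e4 and Tfh2_1e4 deviated together at a correlation over 0.1 (-0.0443 to 0.0676). Of the 5 TfhA_4e4 libraries, 2 were closest to the library of their own number. The numbers were not used as pairs, but these correlations do not test for a split between low and high numbers. The mitochondrial gene ND4 was at 1543, 1446, 1492.5, 2072, 2355 and 2367 CPM in Tfh2_1e4, in the order of the replicate numbers. In TfhA_4e4 it was at 2330, 1964, 2408, 4090 and 3215 CPM. Whether the numbers mark batches is not given in the labels. The mitochondrial share does not overlap between the groups, so with it as a covariate share and group cannot be fully told apart. Genes with few counts, such as Bcl6 and Prdm1, were too low to test, and the part of depth in that was not tested.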
